A study of Mus musculus with 6 samples.

Results

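Of 39059 genes in the count tables of 6 mouse muscle stem cell libraries, 209 had reads in every library of 1 genotype and in no library of the other. The rule asked for 0 reads in all 3 libraries of 1 genotype and at least 1 read in each of the 3 libraries of the other. It gave 119 genes read only in Lmna mutant libraries and 90 genes read only in wild-type libraries, or 0.548% and 0.415% of the 21707 genes with at least 3 reads. The rule leaves some genes out by name, and 3 of those met the counts. The read counts themselves chose the members, so their difference between genotypes is described here and was not tested. The members were selected on the counts of all 6 libraries.

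The cells were satellite cells, the resident stem cells of skeletal muscle, taken from hind-limb muscle and sorted by FACS without culture. All mice were C57BL/6J at postnatal day 19. The mutant group (3 libraries) was homozygous for Lmna Δ8-11, written -/- in the labels, an allele named for exons 8 to 11 of Lmna, which encodes lamins A and C of the nuclear envelope. The wild-type group (3 libraries) was Lmna Δ8-11 +/+, and the labels name no Cre driver, treatment or further allele in either group. The protocol speaks of 3 mice for a condition without tying a library to an animal, so the spread between libraries may in part be technical. In bulk RNA, fewer cells of a type and less RNA per cell cannot be told apart.

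A gene can be read in only 1 genotype because its RNA is absent from the other, or because its RNA is so rare that sampling happened to miss it there. The number of reads behind a gene separates these cases only by degree. Many members belong to tissues other than muscle: hepatocytes secrete hepcidin, fibrinogen and apolipoproteins, lymphocytes recombine their receptor genes with RAG proteins, and neurons carry glutamate and GABA machinery. The Dlk1-Meg3 region is an imprinted cluster whose maternal transcripts host many miRNAs and snoRNAs, and it is known to be active in quiescent satellite cells.

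Lmna itself had 3120, 3540 and 3442 reads in the homozygous libraries (replicates 1, 2 and 3, the order used throughout). Its wild-type reads were 7278, 5909 and 8327. As CPM (reads scaled to a library of 1000000 gene reads, on totals scaled by TMM), the homozygous mean was 419 ± 39.9 and the wild-type mean 943 ± 107 (SD, n = 3). The log2 fold change was -1.17 (edgeR quasi-likelihood adjusted p = 0.0010). Every homozygous value lay below every wild-type value, although the count includes exons outside the deletion and checks the labels only in part.

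Gene totals ran from 6613636 to 9552751 reads in a library. Of 14099 genes that passed the filter on low counts, 1363 were called higher (9.67%) and 1617 lower (11.5%) in homozygous cells at an adjusted p under 0.05. Of 8 satellite cell markers (among them Pax7, Myf5 and Cdh15), all were read in every library and 5 were called lower, with sums of 1196 to 1913 CPM in the homozygous group and 2261 to 2415 CPM in the wild-type group. Y-linked genes had over 100 reads in homozygous replicate 2 and wild-type replicates 2 and 3, and at most 3 in the other libraries. Both genotypes therefore held libraries with and without Y-linked reads.

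The members were genes of few reads. The homozygous-only genes had 3 to 79 reads over their 3 libraries with a median of 6, and 1091 reads in all. The wild-type-only genes had 3 to 23 reads with a median of 5, and 484 reads in all. No member passed the filter on low counts, so none was in the fit across genes. Without that filter edgeR called 31 homozygous-only genes higher and 10 wild-type-only genes lower, beside 6.60% and 9.14% of the 25748 genes then tested, and since the same contrast chose the members nothing is read from those counts.

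To set these counts beside sampling, each gene's reads were dealt over the 6 libraries in proportion to library totals, and the share of outcomes that meet the rule was summed over genes. Sampling of that kind gives 63.7 homozygous-only and 52.2 wild-type-only genes, where 119 and 90 were observed, ratios of 1.87 and 1.73. For genes with 3 or 4 reads in all, 43 homozygous-only genes were observed where sampling gives 42.6, and 40 wild-type-only genes where it gives 36.3. Members with so few reads were thus about as many as sampling alone gives. They make up 43 of the 119 and 40 of the 90.

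The excess over sampling lay at higher reads. With 5 or 6 reads, 24 homozygous-only genes were observed where sampling gives 15.7, and 34 wild-type-only genes where it gives 12.2. With 7 to 9 reads the counts were 24 beside 4.76, and 13 beside 3.30. With 10 to 19 reads they were 19 beside 0.558, and 2 beside 0.328. Members of many reads were mostly in the mutant direction: 28 homozygous-only genes had at least 10 reads, 9 of them at least 20, while 3 wild-type-only genes had at least 10 and 1 had at least 20.

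**Figure D1:**
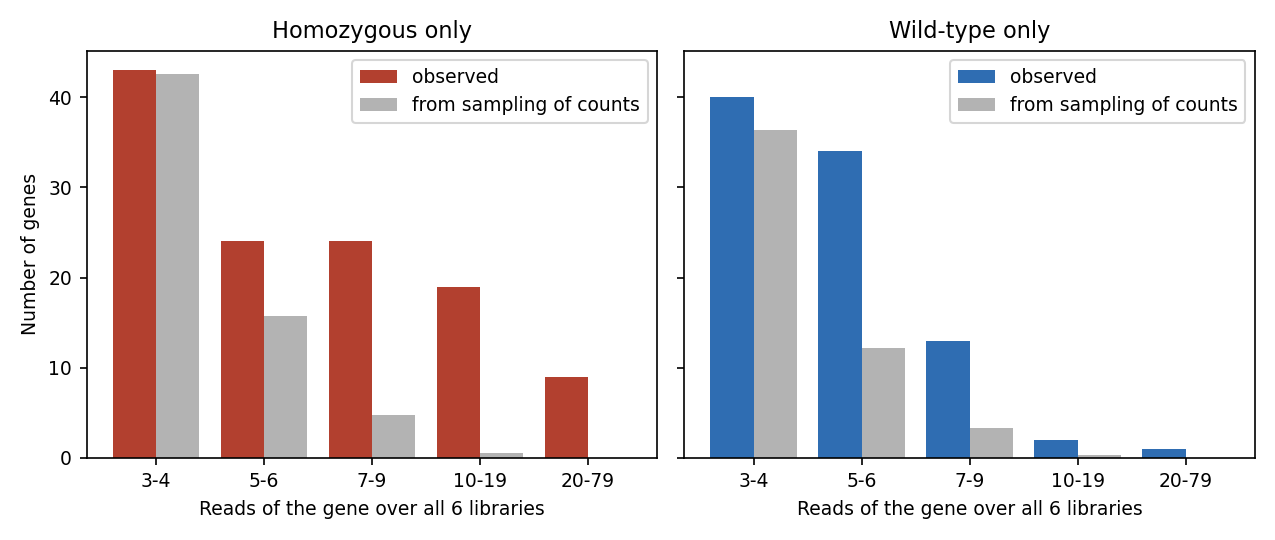
Number of genes (vertical axis) read only in homozygous libraries (left, red) or only in wild-type libraries (right, blue), by the gene's reads over all 6 libraries (horizontal axis), beside the number that sampling of counts gives (grey). At 3 to 4 reads the bars are 43 beside 42.6 and 40 beside 36.3, and at 10 to 19 reads 19 beside 0.558 and 2 beside 0.328.

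The threshold of the rule cuts through a continuum. Just inside it, 21 homozygous-only genes (among them Snai3 and Tekt4) and 17 wild-type-only genes (among them Ppbp and Olfr550) had exactly 1 read in each library. Just outside it, 406 genes had 0 reads in wild type and reads in 2 of the 3 homozygous libraries, with a median of 2 reads. In the other direction 298 genes had 0 reads in homozygous and reads in 2 of the 3 wild-type libraries, with a median of 2 and up to 21. A further 203 genes had reads in all homozygous libraries and a lone wild-type read, and 145 the reverse. Genes with larger contrasts than most members sit there: Cidec, a lipid droplet protein of adipocytes, had 131, 103 and 494 homozygous reads and 1 wild-type read.

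The 10 homozygous-only genes with the most reads were Klb, Hpd, Serpina3m, Zyg11a, Mc2r, Hamp, Fgg, Apoc4, Sgk2 and Hgd. Of these, 6 encode liver plasma proteins or liver enzymes. Since wild-type reads were 0, fold differences are given as lower bounds against 3 reads over the 3 wild-type libraries, or 0.131 CPM. A bound is pooled CPM divided by this floor. Pooled CPM is the summed reads over the summed TMM-scaled totals, so it differs from the printed means. Levels per kilobase also use it. The floor allows for counting error in wild type only, and the homozygous reads enter a bound as counted. A bound thus leaves out the counting error of the homozygous reads. Without molecular identifiers several reads can stem from 1 molecule, which floors and bounds do not cover. A bound is given only for genes with more than 3 reads, 98 of the 119 homozygous-only genes. Any gene with more than 3 reads gets a bound above 1 by construction, so that alone shows no difference. The bound was at least 2 for 52 of them. With 4 reads, 22 homozygous-only genes were observed where sampling gives 18.0.

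**Figure D2:**
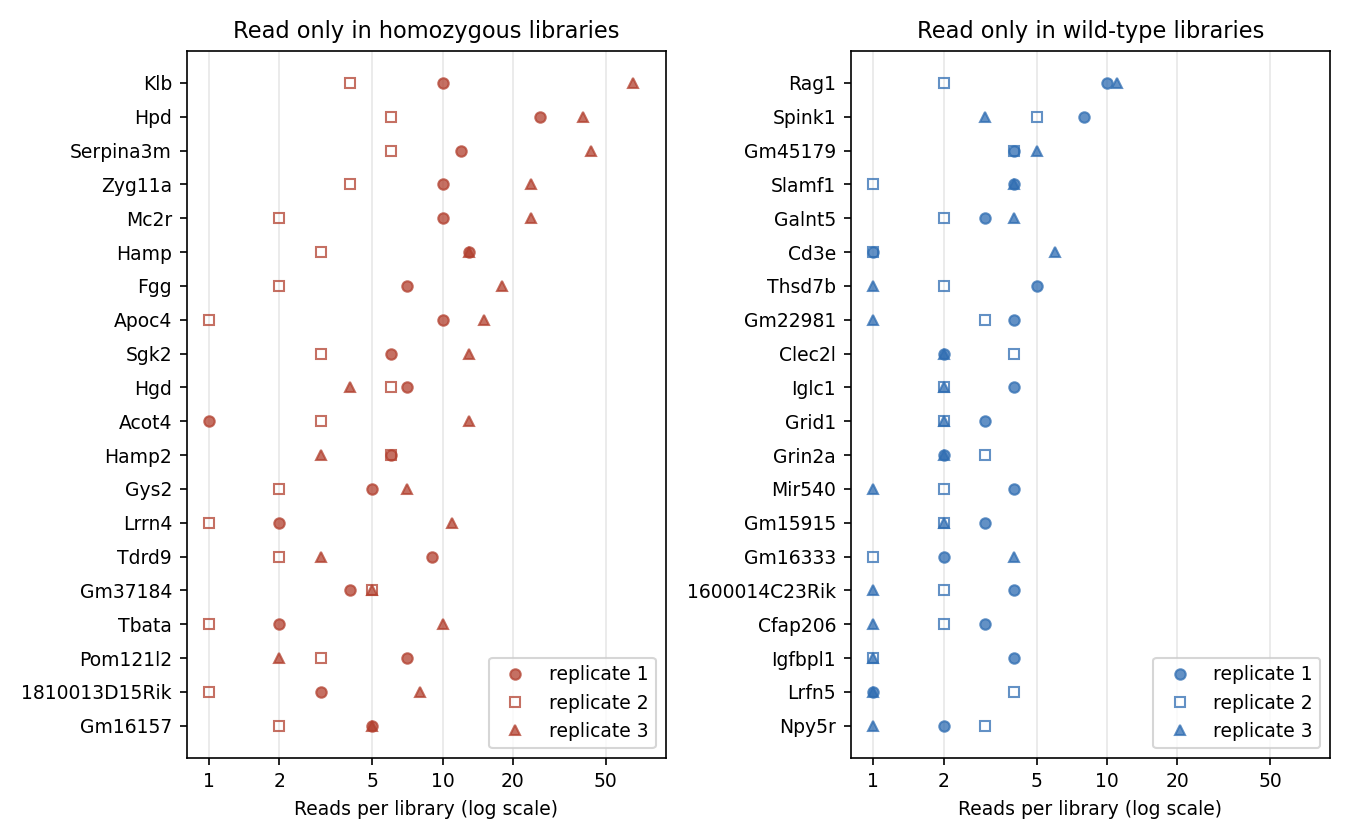
Reads per library (horizontal log axis) of the 20 members with the most reads in each direction, with 1 point for each of the 3 libraries in which they were read. Klb spans 4 to 65 reads and Hpd 6 to 40 in homozygous libraries, while Rag1 spans 2 to 11 and Gm45179 4 to 5 in wild-type libraries.

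Genes of liver plasma proteins and liver metabolism formed the group with the most reads, 17 homozygous-only genes with 304 reads. This grouping by role, like the others here, was made after the counts were seen. The 17 genes together had 103, 44 and 157 reads in homozygous replicates 1, 2 and 3, or 14.4, 4.65 and 20.5 CPM. Replicate 3 was highest and replicate 2 lowest, although replicate 2 had the largest gene total. It was also the homozygous library with Y-linked reads, and the part of that difference was not tested.

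Hpd (4-hydroxyphenylpyruvate dioxygenase, an enzyme of tyrosine breakdown, chr5:123171807-123182727) had 26, 6 and 40 reads, or 3.16 ± 2.33 CPM (SD, n = 3), at least 22.6-fold above the wild-type floor. The gene lies inside Gm26745 on its own strand and Psmd9 on the opposite strand. Hgd (homogentisate dioxygenase, the next enzyme of the route, chr16:37580153-37632020) had 7, 6 and 4 reads, 0.711 ± 0.236 CPM, and a bound of 5.34-fold. Its reads were the most even of the 10 leading genes.

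Other enzymes of tyrosine breakdown, chosen after the members were known, did not share a single pattern. Tat, the first enzyme of the breakdown, had 19, 4 and 6 homozygous against 1, 0 and 4 wild-type reads. Fah, which completes the route, had reads in every library and was higher in homozygous cells (log2 fold change 0.97, edgeR adjusted p = 0.0251). Gstz1, which acts between Hgd and Fah, had a log2 fold change of 0.37 (edgeR adjusted p = 0.256). Tat, Hpd and Hgd were thus at or near 0 in wild type, and Gstz1 and Fah were not.

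Hepcidin, the liver peptide hormone that lowers iron export into blood, has a pair of genes in mouse, and both were members. Hamp (chr7:30942368-30944032, minus strand) had 13, 3 and 13 reads, 1.28 ± 0.832 CPM, at least 9.10-fold above the floor. Hamp2 (chr7:30922372-30924681, minus strand) had 6, 6 and 3 reads, 0.621 ± 0.223 CPM, at least 4.71-fold. Replicate 2, lowest for Hamp, tied in reads with replicate 1 for Hamp2. Its library total was larger, so in CPM replicate 1 was highest for Hamp2. Their transcripts are identical at 94.6% of 410 aligned bases, so the division of reads between them is uncertain, and both lie opposite Gm44662, a lincRNA with exon overlap on Hamp2. Per kilobase of exon, Hamp had the highest level of the protein-coding homozygous-only genes, 2.91 CPM per kilobase, ahead of Serpina3m at 1.46, Hpd at 1.39 and Hamp2 at 1.06.

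The upstream sequences of the hepcidin pair are shown because these neighbours were read together. They cover bases 200 to 11 before the start in RefSeq (GRCm38.p6), 5′ to 3′ on the minus strand, chr7:30944040-30944229 for Hamp and chr7:30924192-30924381 for Hamp2. The Hamp2 window lies inside the gene bounds given above, because the annotation behind those bounds starts Hamp2 further upstream than RefSeq does. Capitals mark matches to TTCNNNGAA, the form of a STAT site, and to GGCGCC, the core of the BMP response element.
Hamp: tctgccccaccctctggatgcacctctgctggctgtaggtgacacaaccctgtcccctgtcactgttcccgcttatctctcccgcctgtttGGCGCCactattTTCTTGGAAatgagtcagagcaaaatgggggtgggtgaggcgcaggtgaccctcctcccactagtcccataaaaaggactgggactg
Hamp2: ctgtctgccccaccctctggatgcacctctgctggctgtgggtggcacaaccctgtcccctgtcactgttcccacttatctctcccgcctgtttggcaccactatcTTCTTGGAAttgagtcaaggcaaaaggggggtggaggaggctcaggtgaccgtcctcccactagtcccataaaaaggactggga

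Over the full windows of 250 bases before to 50 after the start, 276 of 297 aligned bases were identical (92.9%). GGCGCC was found in Hamp and not in Hamp2, while the TTCNNNGAA match was found in both. Among all 32851 windows of this length, searched on both strands, TTCNNNGAA occurs in 8.30% and GGCGCC in 11.9%. Such a match is a description of letters and not a shown binding site. Of the 209 members, 105 had a window in the table, 53 homozygous-only and 52 wild-type-only genes with 61 windows each. TTCNNNGAA occurred in 5 of 61 windows in each direction, and GGCGCC in 3 and 2 of 61, close to or below the share of all windows.

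Windows were also scored for CpG content, as CpG sites observed over the number given by their C and G content. A ratio of at least 0.6, a usual mark of CpG-rich promoters, was found in 6 of 61 homozygous-only windows (9.84%) and in 18 of 61 wild-type-only windows (29.5%). The share was 28.7% of windows of all genes with 3 to 79 reads, and 35.8% of all windows. In all, 6 motifs were searched on both strands. CCAAT was in 27 homozygous-only windows (44.3%) and 14 wild-type-only windows (23.0%), where all windows gave 37.4%. TTGNNNAA, the form of a C/EBP site, was in 28 (45.9%) and 24 (39.3%), beside 36.7% of all windows. TATAAA, the TATA box, was in 7 windows in each direction (11.5%), beside 13.6%, and GTTAAT, part of an HNF1 site, in 5 in each (8.20%), beside 7.10%. CCAAT had the widest gap between the directions of the 6. These shares are descriptions without a test, and windows of 1 gene can overlap.

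Serpina3m (chr12:104338486-104394257) encodes a secreted serine protease inhibitor of the antichymotrypsin family. It had 12, 6 and 43 reads, 2.64 ± 2.63 CPM, at least 19.1-fold above the floor. Its exons overlap those of Serpina3k, whose transcript is 91.4% identical, so counts between these paralogs are uncertain. Serpina3k had 2, 0 and 7 homozygous reads and none in wild type. Serpina3n, the next gene of the cluster, had 892, 394 and 1130 reads against 184, 113 and 214 and was called higher (log2 fold change 2.23, edgeR adjusted p = 0.0042). Orm1 (2, 1 and 2 reads) and its neighbour Orm3 (2, 1 and 1) encode the acute-phase protein orosomucoid, and their transcripts are 86.5% identical.

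Of the 3 fibrinogen chains, Fgg (gamma chain, chr3:83007724-83015049) had 7, 2 and 18 reads, 1.18 ± 1.08 CPM, at least 8.48-fold. Fgb (beta chain) had 2, 1 and 1 reads. Fga (alpha chain), between them on chromosome 3, missed the rule by 3 wild-type reads but had the highest count of the trio, with 89, 6 and 182 homozygous reads. All 3 chains were lowest or tied for lowest in homozygous replicate 2. An exon of Fgg overlaps Gm30097 on the opposite strand.

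Apoc4 (an apolipoprotein of triglyceride-rich particles, chr7:19678083-19681479) had 10, 1 and 15 reads, 1.15 ± 0.949 CPM, at least 8.16-fold. It overlaps Gm44805, which had 0 reads in all libraries. Its neighbour Apoc1 showed the same order of homozygous libraries at higher counts, 123, 17 and 175 reads against 2, 0 and 1, and was called higher (log2 fold change 6.56, edgeR adjusted p = 0.0041). Apoe, in the same cluster, had a log2 fold change of 0.71 (edgeR adjusted p = 0.0147), while Apoc2 had 0 reads in every library. The annotated bounds of Apoc2 also overlap those of Gm44805 on the same strand, so its count of 0 is uncertain. As counted, the cluster held a gene at 0 throughout, a gene read only in mutants and a gene abundant in both genotypes.

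The remaining liver genes had fewer reads. Gys2, the liver glycogen synthase, had 5, 2 and 7 reads and Apof, an apolipoprotein, had 5, 2 and 1. Azgp1, a secreted lipid-mobilising protein, had 2, 2 and 4 reads. Creb3l3, a liver transcription factor, had 1, 2 and 1 reads, and Cyp3a57 and Glyatl3 had 3 each, the fewest the rule allows.

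Hepatocyte markers as a list were only partly read. Of 8 markers, Fgb was a member, Serpina1a was at 0 in all 6 libraries, and Alb, the most abundant hepatocyte product, had 0, 0 and 10 homozygous reads and none in wild type. Apoa1 (3, 0 and 7 against 3, 1 and 3 reads), Apoa2 (2, 0 and 3 against 1, 2 and 0) and Ahsg (0, 1 and 6 against 2, 0 and 2), which encode plasma proteins, were read in both genotypes. The list summed to 8.24 to 36.4 CPM in the homozygous group and 0.475 to 1.39 CPM in the wild-type group. Most of the homozygous sum was Cyp2e1, also expressed in fat, with 68, 75 and 250 reads against 3, 0 and 5 (log2 fold change 5.52, edgeR adjusted p = 0.0018), the sole marker of the list tested. Without it the other 7 markers summed to 0.976, 0.317 and 3.79 CPM in homozygous replicates 1, 2 and 3 and to 0.475 to 0.759 CPM in the wild-type group, and these ranges overlap. Alb was at 0 in homozygous replicates 1 and 2, where the 17 liver-type members had 103 and 44 reads. It was read in replicate 3, where they had 157. The part of other cells in these members was not tested.

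Genes of lipid handling, fasting and hormone response formed the group with the next most reads, 7 genes with 30, 15 and 125 reads, or 4.18, 1.59 and 16.3 CPM in homozygous replicates 1, 2 and 3. Klb (beta-klotho, the co-receptor for the hormone FGF21, expressed in liver and fat, chr5:65348314-65384007) led all members with 10, 4 and 65 reads. Its mean was 3.43 ± 4.40 CPM and its bound 24.8-fold. The SD exceeded the mean because replicate 3 held 65 of its 79 reads. Fgf21 itself was read in every library at 0.745 ± 0.262 and 0.658 ± 0.440 CPM, and its receptor Fgfr1 had a log2 fold change of 0.13 (edgeR adjusted p = 0.611).

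Mc2r, the ACTH receptor of adrenal cortex and adipocytes, had 10, 2 and 24 reads, 1.58 ± 1.47 CPM, at least 11.3-fold. Sgk2, a kinase related to the glucocorticoid-regulated SGK1, had 6, 3 and 13 reads, 0.950 ± 0.697 CPM, at least 6.91-fold. Ffar4, a receptor for long-chain fatty acids, had 1, 1 and 5 reads. All 4 receptor and kinase genes of the group were highest in homozygous replicate 3.

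Acot3, Acot4 and Acot5, adjacent acyl-CoA thioesterase genes on chromosome 12, were all homozygous-only. Acot4 had 1, 3 and 13 reads (0.718 ± 0.852 CPM, at least 5.34-fold), Acot3 had 1, 1 and 4, and Acot5 had 1 in each. Exons of Acot3 and Acot4 overlap Gm49366 on the same strand and 4732463B04Rik on the opposite strand, and transcripts of Acot3 and Acot5 are 82.3% identical. Other genes of the cluster gave other values. Acot2, the mitochondrial form, was lower in homozygous cells (log2 fold change -0.86, edgeR adjusted p = 0.0118), and Acot1 had a log2 fold change of 0.24 (edgeR adjusted p = 0.309).

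Adipocyte markers stood beside these values. Of 8 markers none was a member, 4 were tested and all 4 were called higher in homozygous cells. Adipoq had 65, 61 and 284 reads against 2, 2 and 4, and Cfd had 354, 342 and 2136 against 1, 0 and 1. The list summed to 432, 461 and 1002 CPM in homozygous replicates 1, 2 and 3 and to 181 to 293 CPM in the wild-type group. Most of these sums was Fabp4, a fatty acid carrier that endothelial cells also express, with 2533, 3836 and 4698 reads against 2533, 1133 and 1900 (log2 fold change 0.94, edgeR adjusted p = 0.0173). The other 7 markers summed to 78.8, 56.0 and 389 CPM in homozygous replicates 1, 2 and 3 and to 0.577 to 1.27 CPM in the wild-type group. Fabp4 was left out after the counts were seen. The sum without it had the library order of the liver and lipid members, with replicate 3 highest and replicate 2 lowest. Cfd alone gave 49.4, 36.1 and 279 CPM of that sum. Adipoq, Cidec and Retn had the same order in CPM, and the rest of the list did not. Plin1 had 1, 9 and 7 reads against 1, 1 and 2, Ucp1 2, 3 and 0 against 1, 4 and 1, and Lep 0, 0 and 0 against 0, 1 and 0. The part of adipocyte RNA in the members' counts was not tested.

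**Figure D3:**
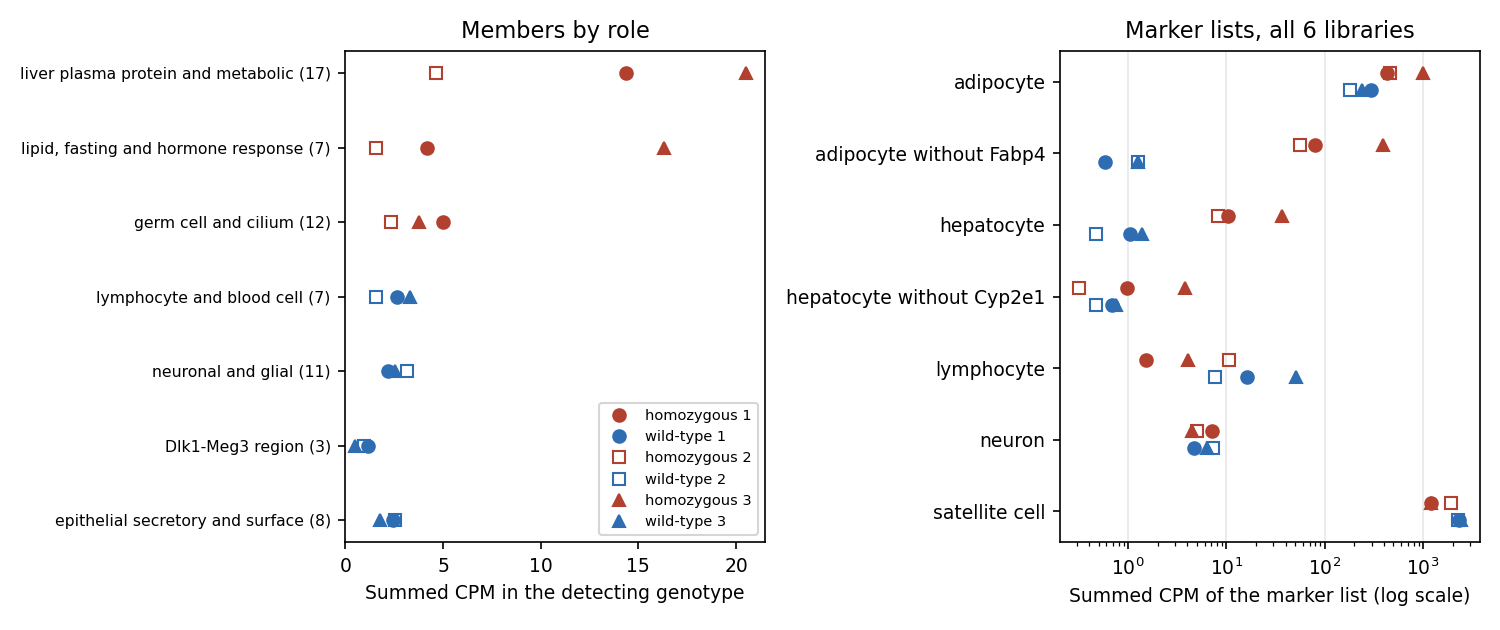
Left, summed CPM (linear axis) of the members of each role group in each library of the genotype that read them, with the number of genes in brackets. Right, summed CPM (log axis) of marker lists in all 6 libraries, red homozygous and blue wild-type. The liver group stands at 14.4, 4.65 and 20.5 CPM and the hepatocyte markers at 8.24 to 36.4 against 0.475 to 1.39 CPM with Cyp2e1, and at 0.317 to 3.79 against 0.475 to 0.759 CPM without it.

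A further homozygous-only group was genes of germ cells and cilia, 12 genes with 36, 22 and 29 reads, or 5.02, 2.33 and 3.78 CPM. Tdrd9, a helicase of the piRNA pathway, had 9, 2 and 3 reads and Dnah3, an axonemal dynein, had 2, 5 and 2. Tbata had 2, 1 and 10 reads, and Pom121l2 had 7, 3 and 2. Hormad2, a protein of meiotic chromosome axes, had 5 reads in all. Different members peaked in different libraries. Of 10 germ cell markers none was a member, none was tested, and Prm1, Prm2, Tnp1, Dppa3 and Zp3 were at 0 in all libraries. Ddx4, an RNA helicase of germ cells, had 2, 4 and 2 against 1, 1 and 1 reads, and Sycp3, of meiotic chromosome axes, 1, 2 and 2 against 0, 0 and 1. The list summed to 0.634 to 0.697 CPM in the homozygous group and 0.231 to 0.506 CPM in the wild-type group, ranges that do not overlap and rest on few reads. The part of germ cell RNA in these members was not tested.

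Among other homozygous-only genes, Zyg11a, of a family of cullin ubiquitin ligase subunits, had 10, 4 and 24 reads, 1.65 ± 1.37 CPM, at least 11.9-fold. Lrrn4, a leucine-rich repeat membrane protein, had 2, 1 and 11 reads. Pdcd1lg2, the PD-1 ligand PD-L2, had 2, 3 and 3 reads, and S100a5, a calcium-binding protein, had 3, 2 and 4. These last genes were even over the libraries, unlike Lrrn4. The lincRNA Gm37184 (chromosome 1) had 4, 5 and 5 reads, and 12 homozygous-only genes had at least 3 reads in every library.

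Reads of homozygous-only genes were not spread over libraries as all reads were. Homozygous replicates 1, 2 and 3 held 31.1%, 22.0% and 46.9% of the members' reads but 30.5%, 39.6% and 30.0% of the gene reads of their genotype. That was 46.1, 25.1 and 70.8 reads in every 1000000 gene reads. The 10 leading genes alone had 111, 37 and 259 reads. Wild-type-only genes had 22.0, 20.9 and 20.3 such reads in wild-type replicates 1, 2 and 3. Homozygous replicate 3 thus held the largest share in the mutant direction, while wild-type libraries were nearly even.

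The 10 wild-type-only genes with the most reads were Rag1, Spink1, Gm45179, Slamf1, Galnt5, Cd3e, Thsd7b, Gm22981, Clec2l and Iglc1. Bounds are made in the same way, against 3 reads over the 3 homozygous libraries, or 0.123 CPM. Of the 90 wild-type-only genes, 73 had more than 3 reads and so a bound, which was at least 2 for 35.

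Lymphocyte and blood cell genes were 7 of the wild-type-only genes, with 23, 10 and 26 reads, or 2.65, 1.58 and 3.29 CPM in wild-type replicates 1, 2 and 3. Rag1, the recombinase subunit that cuts antigen receptor genes in developing lymphocytes, had 10, 2 and 11 reads, 0.954 ± 0.565 CPM, at least 8.14-fold above the floor. Rag1 (chr2:101638282-101649501) lies within B230118H07Rik on the same strand with shared exons, and that gene was read in every library (80, 86 and 93 against 102, 111 and 105 reads). Its partner gene Rag2 had 0, 3 and 1 against 1, 0 and 2 reads. The pair of recombinase genes thus did not share the pattern.

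Slamf1, a surface receptor of lymphocytes, had 4, 1 and 4 reads. Cd3e, a chain of the T cell receptor complex, had 1, 1 and 6 reads, 0.344 ± 0.360 CPM, at least 2.83-fold, with an exon overlapped by Gm48719 on the opposite strand. The neighbouring CD3 chains were read in homozygous replicate 2: Cd3g had 0, 4 and 0 against 6, 1 and 9 reads, and Cd3d had 0, 4 and 0 against 3, 3 and 1. Iglc1, an immunoglobulin light chain constant gene, had 4, 2 and 2 reads. Prg3, an eosinophil granule protein, and Havcr1 had 4 reads each, and Ppbp, a platelet chemokine, had 3.

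Lymphocyte markers varied widely between libraries. The 10 markers, of which Cd3e is a member, summed to 1.53, 10.6 and 4.05 CPM in the homozygous group and 16.0, 7.61 and 51.1 CPM in wild-type replicates 1, 2 and 3. These ranges overlap. Ighm, the sole marker tested, was called lower in homozygous cells (log2 fold change -2.52, edgeR adjusted p = 0.0354). Wild-type replicate 3 alone held 18 reads of Ighg1 and 16 of Igha, antibody heavy chain genes that missed the rule. Of 7 erythroid markers, genes of red blood cells, all were tested and 4 were called lower, with sums of 217 to 882 CPM in the homozygous group and 896 to 1594 CPM in the wild-type group. The part of lymphocyte or other blood cell RNA in these members was not tested.

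Neuronal and glial genes were 11 of the wild-type-only genes, with 19, 20 and 20 reads. In wild-type replicates 1, 2 and 3 that was 2.19, 3.17 and 2.53 CPM. Grid1 (3, 2 and 2 reads) and Grin2a (2, 3 and 2) encode glutamate receptor subunits, and Gad1 (2, 1 and 3) makes GABA. Npy5r, a neuropeptide Y receptor, had 2, 3 and 1 reads, Lrfn5, a synaptic adhesion protein, 1, 4 and 1, and Mog, a myelin protein, 2, 1 and 3. The reads of this group were even over the libraries, while in CPM replicate 2 was highest. Of 10 neuron markers Gad1 is the sole member, and Rbfox3 was at 0 throughout. Of the 2 that were tested, Stmn2, a protein of growing axons, was called lower in homozygous cells, with 5, 12 and 8 against 20, 28 and 24 reads (log2 fold change -1.64, edgeR adjusted p = 0.0147), and Nefm, a neurofilament protein, had a log2 fold change of 1.24 (edgeR adjusted p = 0.0512). Snap25, untested, had 2, 0 and 4 homozygous reads and none in wild type. The list summed to 4.44 to 7.11 CPM in the homozygous group and 4.73 to 7.29 CPM in the wild-type group, and these ranges overlap.

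Genes of secretory and surface epithelium were 8 of the wild-type-only genes, with 21, 16 and 14 reads. In wild-type replicates 1, 2 and 3 that was 2.42, 2.54 and 1.77 CPM. Spink1, a secreted trypsin inhibitor of the pancreas, had 8, 5 and 3 reads, 0.698 ± 0.284 CPM, at least 5.66-fold, and at 0.959 CPM per kilobase the highest level for its length among protein-coding wild-type-only genes. Galnt5, an enzyme of mucin-type glycosylation, had 3, 2 and 4 reads, with an exon overlapped by Ermn on the opposite strand. Nphs1, the kidney slit diaphragm protein nephrin, and Kcne2, a potassium channel subunit, had 5 reads each. Apart from Spink1, no gene of this group reached 10 reads.

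Further wild-type-only genes had 5 to 8 reads. Thsd7b had 5, 2 and 1 reads and Clec2l, a C-type lectin, 2, 4 and 2. The protein-coding 1600014C23Rik had 4, 2 and 1 reads, Cfap206, a cilium protein, 3, 2 and 1, Igfbpl1 4, 1 and 1, and Rimkla 1, 3 and 2. Cnmd, the cartilage protein chondromodulin, had 1, 1 and 3. Only Rag1, Spink1 and Gm45179 of the 90 had 10 reads or more.

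Of the miRNA biotype there were 9 members, and 5 of them have a mature sequence in RefSeq (GRCm38.p6). The sequences are shown because they identify what these loci would produce. Seeds, bases 2 to 8, are in capitals, and no seed is shared among them. The first 8 come from wild-type-only and the last 2 from homozygous-only loci.
miR-540-5p: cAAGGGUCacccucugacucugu
miR-540-3p: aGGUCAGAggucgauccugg
miR-544-5p: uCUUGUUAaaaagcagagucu
miR-544-3p: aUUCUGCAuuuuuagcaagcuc
miR-326-5p: gGGGGCAGggccuuugugaaggcg
miR-326-3p: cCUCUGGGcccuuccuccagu
miR-362-5p: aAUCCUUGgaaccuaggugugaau
miR-362-3p: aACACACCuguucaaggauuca
miR-6947-5p: cAUCCAGUggagaggcucgug
miR-6947-3p: gCAGCCUCuuucccuggcauca

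The libraries were made from total RNA without selection of small RNA, so reads over these loci do not separate the arms or mature RNA from precursor or host transcripts. Mir540 had 4, 2 and 1 wild-type reads, Mir544 2, 1 and 2, Mir326 3, 1 and 1, and Mir362 2, 1 and 1. Mir6947 had 2, 3 and 1 homozygous reads. Mir362 lies inside Clcn5, which was called lower in homozygous cells (log2 fold change -1.23, edgeR adjusted p = 0.0011), and Mir6947 inside Actr8, called higher (0.46, adjusted p = 0.0242). Mir326 lies inside Arrb1, whose log2 fold change was 0.04 (edgeR adjusted p = 0.899). The first pair of hosts moved in the direction in which the miRNA locus was read, and Arrb1 was not called.

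Mir540 (chr12:109586080-109586146), the snoRNA gene Gm22981 (chr12:109682384-109682458; 4, 3 and 1 reads) and Mir544 (chr12:109729325-109729402) lie on the plus strand of the Dlk1-Meg3 region. Of the genes within 100 kb of them, 12 were tested and all 12 were called lower in homozygous cells. Rian, the host transcript of many snoRNAs, had 636, 1417 and 675 reads against 4378, 3453 and 4274 (log2 fold change -2.28, edgeR adjusted p = 0.0004). Meg3 had a log2 fold change of -1.54 (edgeR adjusted p = 0.0028), and Mirg had 61, 123 and 74 against 396, 254 and 315 reads. These 3 members are thus the rarely read end of a cluster whose abundant transcripts were lower and still read in homozygous libraries.

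**Figure D4:**
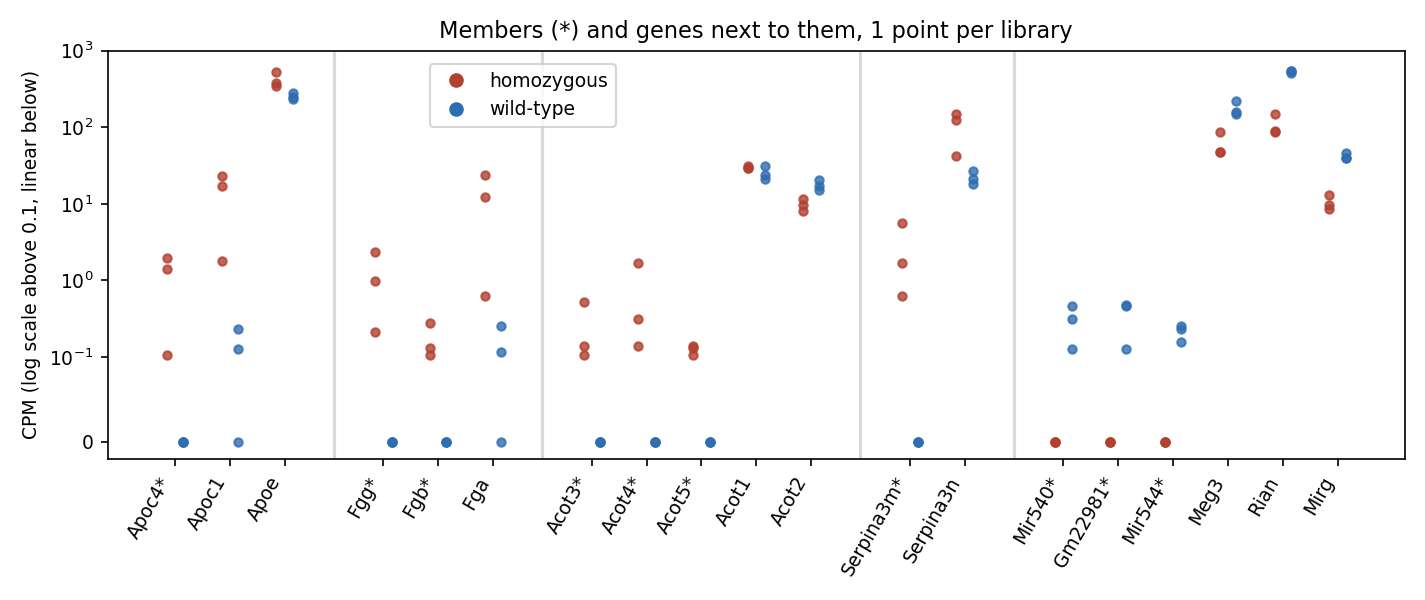
CPM per library (vertical axis, log above 0.1 and linear below) of members, marked with an asterisk, and of genes next to them, red homozygous and blue wild-type. Members are at 0 in all libraries of 1 genotype, while Rian and Meg3 are read in all 6 libraries and Acot1 is at 29.9 ± 1.23 CPM in the homozygous group and 25.5 ± 5.34 CPM in the wild-type group (SD, n = 3).

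More generally, 36 homozygous-only and 24 wild-type-only genes lay inside another gene. Gm45179 (4, 4 and 5 reads, 0.576 ± 0.0993 CPM, at least 4.60-fold) lies inside Dlg2 on the same strand, and Dlg2 had 0, 4 and 1 against 28, 12 and 9 reads. Gm43502 lies inside Dpp6, called lower (log2 fold change -2.86, edgeR adjusted p = 0.0174). The rRNA-annotated Gm25447 (5, 2 and 3 homozygous reads) lies inside Abcg1, a sterol transporter called higher (log2 fold change 2.12, edgeR adjusted p = 0.0012), and Gm44236 inside Aldh1l1, also called higher (2.14, adjusted p = 0.0011). In these cases member and host went the same way.

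Counted over all hosts on the same strand, 15 hosts of homozygous-only genes were tested, of which 4 were called higher and 1 lower. For wild-type-only genes 6 such hosts were tested, of which 3 were called lower and 1 higher. Hosts on the opposite strand were called higher and lower equally often, 1 and 1 of 10 and 2 and 2 of 7. Exons overlapped those of another gene for 26.1% of homozygous-only and 22.2% of wild-type-only genes, where 31.2% of the 8356 genes with 3 to 79 reads had such an overlap.

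Genes near members but not members themselves were mostly uncalled. Within 100 kb of homozygous-only genes, 424 were tested, of which 59 were called higher (13.9%) and 39 lower (9.20%), beside 9.67% and 11.5% over all genes tested. Within 100 kb of wild-type-only genes, 211 were tested, of which 22 were called higher (10.4%) and 34 lower (16.1%). Without the 12 genes of the Dlk1-Meg3 region, 22 of 199 were called lower (11.1%). Median log2 fold changes were 0.04 and 0.02, beside -0.0038 over all genes tested.

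Members near each other were few. Within 100 kb of another member lay 13 homozygous-only and 8 wild-type-only genes. The homozygous-only groups were the Hamp pair, Fgg with Fgb, Acot3 to Acot5, Orm1 with Orm3, Srarp with Gm13074, and Glyatl3 with the snRNA gene Gm23078. Wild-type-only groups were the Dlk1-Meg3 genes, 1600014C23Rik with F630040K05Rik, and Gm26638 with Gm37995, both inside Tmem178b. On chromosome 4 the wild-type-only antisense gene Gm13075 (4 reads) lay between the homozygous-only Gm13074 (5 reads) and Srarp (6 reads), near Hspb7, a small heat shock protein of muscle called higher (log2 fold change 1.47, edgeR adjusted p = 0.0025). Neighbours in this place were read in opposite genotypes, on few reads.

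By biotype, 63 of 119 homozygous-only genes were protein-coding (52.9%), where sampling of counts gives 25.0 of 63.7 genes (39.3%). Of the wild-type-only genes 46 of 90 were protein-coding (51.1%), where it gives 20.5 of 52.2 (39.2%). Among all genes with 3 to 79 reads 45.5% were protein-coding. Since sampling gives fewer genes in all than were observed, shares compare biotypes better than numbers do. Antisense genes numbered 18 homozygous-only beside 8.42 from sampling (15.1% beside 13.2%), and 7 wild-type-only beside 6.92 (7.78% beside 13.3%). The lincRNA counts were 13 beside 9.79 (10.9% beside 15.4%) and 16 beside 8.07 (17.8% beside 15.5%). For miRNA genes they were 4 beside 4.35 (3.36% beside 6.83%) and 5 beside 3.57 (5.56% beside 6.84%). Genes with predicted or clone names (such as Gm and Rik) were 59 of 119 homozygous-only genes, beside 35.9 of 63.7 from sampling. They were 42 of 90 wild-type-only genes, beside 29.4 of 52.2. In both directions their share was thus below that from sampling, although their number was above it. Of the 28 homozygous-only genes with at least 10 reads, 19 were protein-coding.

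By chromosome, homozygous-only genes were most numerous on chromosome 5, with 13 (10.9%) where sampling gives 5.32 (8.36%). They numbered 10 each (8.40%) on chromosomes 2, 3, 7 and 9, where the shares from sampling are 6.82%, 6.19%, 8.48% and 6.97%. Wild-type-only genes were most numerous on chromosomes 2 and 4, with 10 each (11.1%) where sampling gives 3.54 (6.78%) and 3.58 (6.85%). The X chromosome held 7 wild-type-only genes (7.78%) beside 1.64 from sampling (3.14%). It held 2 homozygous-only genes (1.68%) beside 2.01 (3.16%). The 7 were Gm26593, Nr0b1, 8030474K03Rik, Xlr5c, Mir362, Drr1 and Gm27000, with Xlr5c inside the annotated bounds of its paralog Xlr5a. No member was on the Y chromosome, and the part of the libraries' differing Y-linked reads in the X-linked members was not tested. Median exon length was 1451 bases for homozygous-only and 2007 for wild-type-only genes, beside 1964 for all genes with 3 to 79 reads.

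**Figure D5:**
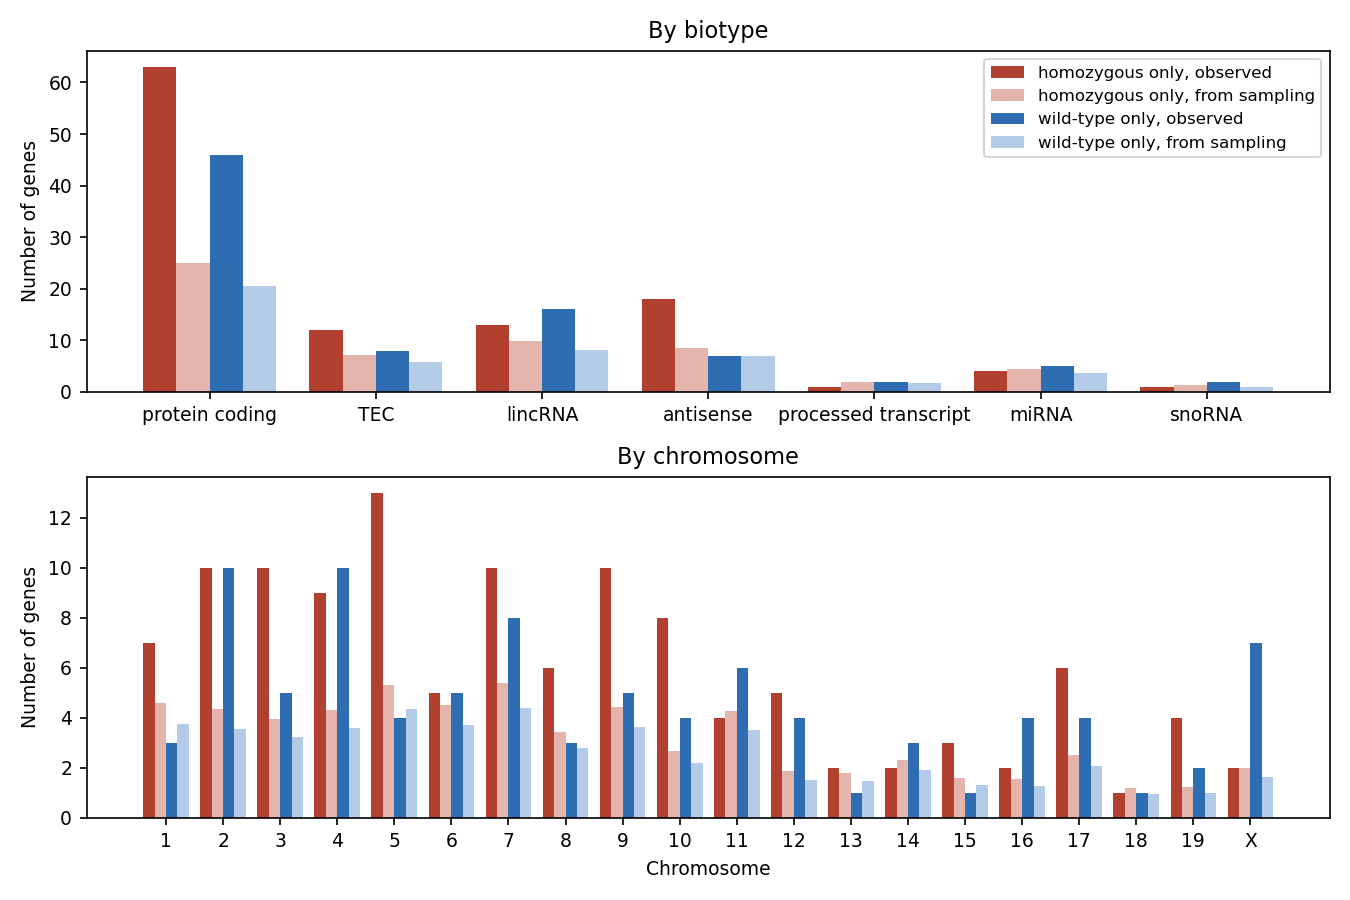
Number of homozygous-only (red) and wild-type-only (blue) genes by biotype (top) and chromosome (bottom), each beside the number from sampling of counts in a lighter shade. Protein-coding bars stand at 63 beside 25.0 and 46 beside 20.5, and X chromosome bars at 2 beside 2.01 and 7 beside 1.64. Over all genes sampling gives 63.7 and 52.2, where 119 and 90 were observed.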

How the data were processed

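Each of the 3 homozygous and 3 wild-type libraries has a table, deposited by the authors, of raw counts of reads by Ensembl gene identifier. Per the submitters' processing notes the work used mm10 with Trimmomatic 0.32, STAR 2.5.2b and HTSeq 0.6.1. Tool settings, strand option and annotation version were not given in the sources used here. Overlapping and antisense genes are therefore uncertain. Summary lines, 45.0 to 49.8% of reads, were left out. Symbols, biotypes and positions come from GENCODE M21 (GRCm38), which matched 38861 of 39059 identifiers and all members.

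Counts were fitted in R 4.3.3 with edgeR 4.0.16 (filterByExpr, minimum count 10 and total 15, TMM, quasi-likelihood test, Benjamini-Hochberg over 14099 genes, threshold 0.05). Numbers from sampling are multinomial sums with library shares from gene totals. Both steps were tested on simulated data. Identity was computed on global alignments of GENCODE transcripts or RefSeq windows.

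Members and lists were chosen with earlier results of these data known. Named are, per direction, the 10 members and 15 protein-coding members with the most reads, members within 100 kb of another, and members among the markers. Role groups and other named genes were picked after their counts were seen. Values of some single genes are not reported here. Alternatives were DESeq2 1.42.0 and its size factors, no filter, a replicate block, omission of each library, other count limits, thinned counts, other library shares, spread between libraries, omission of overlapping genes and a distance of 500 kb.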

Additional observations from a re-analysis of the deposited data

How the results depend on the processing

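The number of members depends on the limits of the rule. With at least 2 reads asked in every library of the detecting genotype, 35 homozygous-only and 9 wild-type-only genes met it, and with at least 3 reads 12 and 2. Allowing 1 read in the other genotype gave 322 and 235. Omission of each library loosens the rule, since fewer libraries must be read or unread, and gave 194 to 261 homozygous-only and 142 to 259 wild-type-only genes. Thinned counts gave 123 and 105, and omission of genes with exon overlap 88 and 70. The numbers from sampling stayed between 64.3 and 67.5 for homozygous-only and between 50.5 and 55.2 for wild-type-only genes. These used other library shares or a biological coefficient of variation between libraries of 0.162 or 0.4. All lay below the observed 119 and 90. The value of 0.162 was estimated on genes that passed the filter, and no member was among them. The spread of genes with few reads was not estimated, and larger spreads were not tried.

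Without the filter on low counts, edgeR called 31 homozygous-only and 10 wild-type-only genes, beside 1700 higher and 2354 lower over all genes. With the filter kept and a library omitted, 0 to 7 homozygous-only and 0 wild-type-only genes passed the filter and were called. The 7 came without homozygous replicate 2, where 1764 genes were called higher over all genes. Without wild-type replicates 1, 2 and 3 they were 2, 3 and 4, beside 655, 786 and 924 higher over all genes. Since the same contrast chose the members, nothing is read from these counts. Over all genes, omission of each library gave 655 to 1764 higher and 881 to 2238 lower calls, lowest without wild-type replicate 1 for higher calls (655) and without homozygous replicate 1 for lower calls (881). Neighbours called near homozygous-only genes then numbered 35 to 68 higher and 20 to 55 lower, and near wild-type-only genes 11 to 26 higher and 23 to 44 lower. Without the filter, lower neighbours numbered 67 and 60. Within 500 kb, called neighbours were 164 higher and 114 lower near homozygous-only genes and 72 higher and 98 lower near wild-type-only genes, and 53 members lay near another. A wider distance counts more genes by construction.

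Deviations of same-numbered libraries correlated at -0.04, 0.02 and -0.10, and those of differently numbered libraries at -0.04 to 0.09. So few values cannot show whether the replicate numbers pair the libraries. With the replicate number as a block, 1024 genes were called higher and 1413 lower. The same block gave 50 higher and 35 lower neighbours near homozygous-only genes, 20 higher and 30 lower near wild-type-only genes, and 0 members in the fit.

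Depth limits what a single member shows: a gene of 3 reads has no more reads than the floor and was given no bound. The cause of the differences between libraries was not tested.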
